A study of Mus musculus with 8 samples.

Results

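The mitosis and spindle genes are 45 listed genes whose products drive a cell into mitosis, build the spindle, hold and release the chromosomes and cut the daughter cells apart. A listed gene was read from 1 probe set, the one with the highest mean intensity over the 8 arrays, and 43 of the 45 had one, out of 12393 genes with a named probe set. Ccnb1 and Espl1 were not analysed here. The arrays held RNA of B220+ CD25+ pre-BII cells sorted from the bone marrow of Bl6 mice with an age of 7 weeks. The 4 genotypes, with 2 arrays each, were wild type, OBF-1-/- (the OBF-1 deletion alone), Aiolos-/- (the Aiolos deletion alone) and the double mutant, which carried both deletions. OBF-1 is a coactivator of the Oct transcription factors and Aiolos is a DNA-binding zinc finger factor related to Ikaros. According to the methods of the study, each array stood for its own pool of mice, whereas the sample labels describe bone marrow of a mouse and mention neither the sort nor a pool.

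Mitosis begins when the kinase CDK1, bound to a B-type or A-type cyclin, becomes active, and it ends when the anaphase promoting complex marks those cyclins and securin for destruction. In between, kinesin motors and Aurora and Polo kinases shape the spindle, and a checkpoint delays anaphase until every kinetochore is attached. Most of the mRNAs of this machinery build up in the late part of the cell cycle and are low in resting cells. The pre-BII gate holds large cells, which divide after the pre-B cell receptor has signalled, and small cells, which have stopped dividing and rearrange their light chain genes. By flow cytometry, the paper found most pre-BII cells to be small and non-dividing, at a similar share in every genotype. It mentions DNA content data, not shown, with the same outcome. The paper also reports a larger proportion of pre-BII cells in Aiolos-/- mice, a further small increase in the double mutant and no change in OBF-1-/- mice. It describes the increase in Aiolos-/- and double-mutant mice as one of small and not of large cells. From the arrays of such a bulk sample alone, fewer dividing cells and less mRNA per dividing cell cannot be told apart.

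Pou2af1, the gene of OBF-1, had intensities of 2761 and 2678 in wild type and of 2434 and 2842 in Aiolos-/- cells. It read 241 and 236 in OBF-1-/- cells and 170.1 and 273 in the double mutant, so the arrays matched their labels for this deletion. Ikzf3, the gene of Aiolos, was not analysed here. Of 10 pre-B cell markers with a probe set, 9 reached an intensity of 100 on at least 1 array, among them Cd79a with 7079 to 9365 and Il2ra, which encodes CD25, with 396 to 703. Pax5 was below 100 on all arrays (58.4 to 72.6). The pre-B markers were not equal between genotypes. Against wild type, Vpreb3 had log2 fold changes of -2.36 in OBF-1-/- and -1.72 in double-mutant cells, and Cd79b -0.48 and -0.81. Il2ra had 0.60 and 0.66 there, and Rag2 0.61 and 0.70. Ebf1 had -0.58 in Aiolos-/- and -0.51 in double-mutant cells. The rest of the list lay between -0.19 and 0.16 in every mutant. Of 5 T cell markers, 4 stayed under 100 on all arrays. All 9 granulocyte and monocyte markers exceeded 100 on every array, and their summed intensity was 23352 to 23579 in wild type, 26508 to 27326 in Aiolos-/-, 28731 to 32564 in OBF-1-/- and 28809 to 29420 in double-mutant cells. The wild type and OBF-1-/- arrays were processed on fluidics station 2 and the Aiolos-/- and double-mutant arrays on station 1. Station and genotype therefore cannot be told apart when Aiolos-/- or the double mutant is set against wild type, or the double mutant against OBF-1-/-, whereas OBF-1-/- against wild type and the double mutant against Aiolos-/- each lay within a station. Within each station, the arrays with OBF-1 ran on modules 1 and 2 and those without it on modules 3 and 4. Module and OBF-1 deletion therefore cannot be told apart in these comparisons.

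The 43 genes had mean intensities from 8.75 to 1992 with a median of 189.9, against a median of 69.0 over all 22626 probe sets, and 32 of them reached 100. The OBF-1-/- mean was the highest of the 4 genotype means for 39 genes. The lowest mean was that of Aiolos-/- for 25 genes and that of the double mutant for 14 genes. By single arrays, OBF-1-/- replicate 2 held the highest value of 31 genes and double-mutant replicate 1 the lowest value of 19. The shifts were small and most of them shared: few single genes passed the test, a limma fit of all probe sets with a threshold of 0.05 on the p adjusted by Benjamini and Hochberg. With 2 arrays a genotype the precision is limited.

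**Figure D1:**
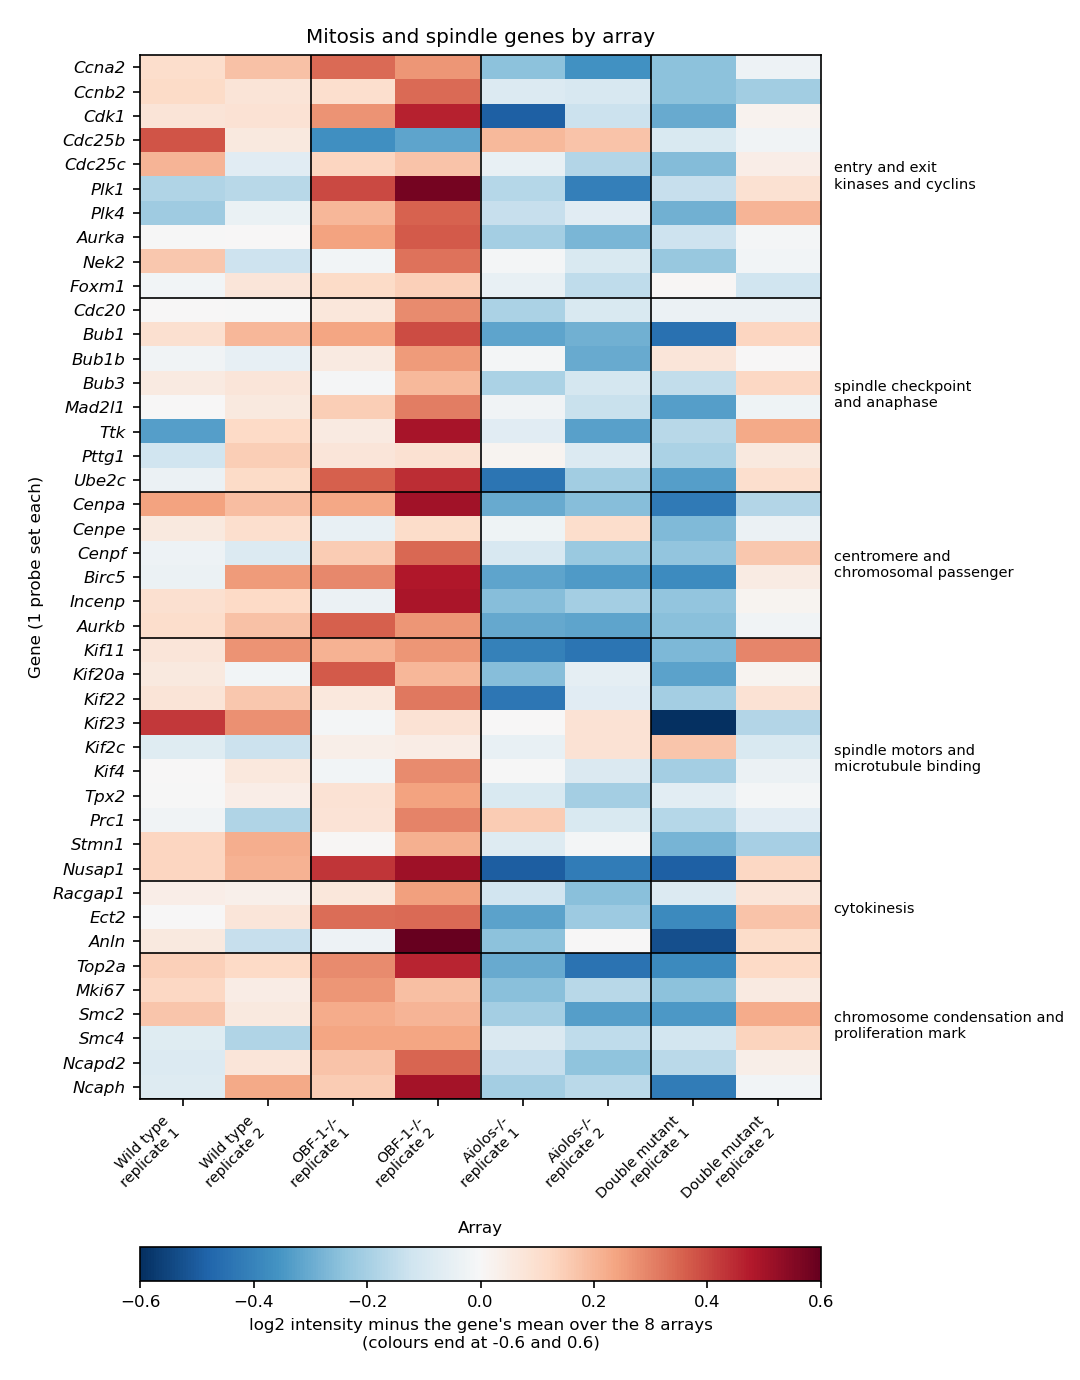
Each row is 1 of the 43 genes, ordered by role, and each column 1 of the 8 arrays; the colour is the log2 intensity minus the gene's own mean over the 8 arrays. The OBF-1-/- columns are mostly red, with 31 of the 43 highest values on replicate 2, the Aiolos-/- columns and double-mutant replicate 1 are mostly blue, and double-mutant replicate 2 is close to the middle.

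In Aiolos-/- cells 39 of the 43 genes lay below wild type, with a median log2 fold change of -0.19, where all probe sets had 0.030 and the 9805 probe sets with a mean of 100 or more in a genotype had -0.035. Both arrays had this shift: the median against the wild type mean was -0.21 on replicate 1 and -0.22 on replicate 2. For 30 of the 43 genes (69.8%) both Aiolos-/- arrays were below both wild type arrays, which was so for 21.8% of all probe sets and 34.3% of those with a mean of 100 or more. Only 1 gene, Aurkb, passed the test as lower, against 1.01% of all probe sets, and none as higher, against 0.831%. These arrays came from different fluidics stations. Of 4 markers of pro-B and pre-BI cells, the stage before pre-BII, Dntt rose in Aiolos-/- cells (log2 fold change 0.45, limma adjusted p = 0.0404). Its probe set is of the x_at type, which can cross-hybridize, and had a mean intensity of 91.7. The paper describes Dntt mRNA as unaltered in both single mutants and the double mutant. The summed intensity of the 4 markers was 2148 to 2216 in wild type and 2532 to 2823 in Aiolos-/- cells. No granulocyte, monocyte or erythroid marker passed there. The part of the stage markers in the shift was not tested.

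In OBF-1-/- cells the genes lay on the other side. Of the 43, 39 were above wild type, with a median log2 fold change of 0.17 against 0.020 over all probe sets. Both OBF-1-/- arrays were above both wild type arrays for 26 genes (60.5%), against 25.8% of all probe sets and 22.5% of those with a mean of 100 or more. Plk1 passed as higher, with a background of 0.946% of all probe sets, and Cdc25b as lower, with a background of 1.14%. The shift was unequal between the arrays, with a median of 0.090 on replicate 1 and 0.28 on replicate 2. The granulocyte and monocyte markers summed to 28731 on replicate 1 and 32564 on replicate 2, and the 4 erythroid markers with a probe set summed to 1121 and 1480, against 695 and 623 on the wild type arrays. Of the 9 granulocyte and monocyte markers 4 rose in OBF-1-/- cells, and of the erythroid markers Car2 and Klf1 rose, while the globin gene Hba-a1 stayed at 18.2 to 27.5 on all arrays. Markers of other B lineage stages differed as well. The pro-B and pre-BI markers summed to 3139 to 3147, and Il7r, the receptor chain for interleukin 7, rose (log2 fold change 0.58, adjusted p = 0.0115). Ms4a1, which encodes CD20 and was the only one of 3 immature and mature B cell markers to reach 100, fell by 0.72 on the log2 scale (limma adjusted p = 0.00152). The paper lists Ms4a1 among genes reported earlier to depend on OBF-1. Fcer2a and Cr2, the rest of that list, had log2 fold changes of -0.29 (adjusted p = 0.332) and 0.25 (adjusted p = 0.238). Of 4 plasma cell markers Sdc1, which pre-B cells also express, rose (log2 fold change 0.84, adjusted p = 0.000927). The part of any of these markers in the shift of the mitosis genes was not tested.

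In the double mutant 36 of the 43 genes lay below wild type, with a median log2 fold change of -0.17 against 0.0083 over all probe sets. Kif23, Cenpa and Stmn1 passed as lower, 3 of 43 where 4.28% of all probe sets did, and none passed as higher, where 4.29% did. In 16 genes (37.2%) both double-mutant arrays were below both wild type arrays, against 23.3% of all probe sets and 30.5% of those with a mean of 100 or more. The median depended on the array: it was -0.33 on replicate 1 and -0.026 on replicate 2, so that without replicate 1 hardly any shift against wild type was left. Stage and cell type markers moved in the same arrays. Of the 4 pro-B and pre-BI markers Il7r, Bst1 and Dntt rose in the double mutant, with log2 fold changes of 0.88, 0.81 and 0.59, Kit stayed under 100 on all arrays, and the sum was 3664 to 4210. The 3 immature and mature B cell markers summed to 2467 to 2617 in wild type, 1994 to 2115 in Aiolos-/-, 1565 to 1579 in OBF-1-/- and 654 to 718 in double-mutant cells, and Ms4a1 and Fcer2a fell in the double mutant. Most of each sum was Ms4a1, with 2521 and 2379 in wild type and 580 and 650 in double-mutant cells. Of the 9 granulocyte and monocyte markers 6 rose there, of the 4 erythroid markers 2 and of the 4 plasma cell markers 1. Their part in the values of the mitosis genes was not tested.

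Against OBF-1-/- cells the double mutant was lower for 42 genes, with a median log2 fold change of -0.32 (-0.21 without double-mutant replicate 1 and -0.47 without replicate 2; all probe sets -0.015). Both double-mutant arrays were below both OBF-1-/- arrays for 29 genes (67.4%), against 24.7% of all probe sets. Cenpa, Plk1, Ccnb2, Aurkb and Ccna2 passed as lower, 5 of 43 against a background of 1.03%, and none as higher, against 1.61%. These calls depended on the probe set. Other probe sets of Cdc20, Kif2c and Kif22 passed as lower, with log2 fold changes of -0.61, -0.54 and -0.46 (limma adjusted p = 0.0236, 0.0288 and 0.0472). The other probe sets of Ccna2 and Aurkb did not pass. This comparison and those with wild type share arrays, so that they are not separate pieces of evidence.

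Against Aiolos-/- cells the double mutant had 28 of the 43 genes on the upper side, with a median log2 fold change of 0.12 against -0.025 over all probe sets. The sign of that median rested on 1 array: it was 0.23 without double-mutant replicate 1 and -0.038 without replicate 2. Both double-mutant arrays were above both Aiolos-/- arrays for 8 genes (18.6%), against 20.7% of all probe sets. No gene passed the limma test, where 2.95% of all probe sets did, and 4 genes had an unadjusted p under 0.05, where 16.2% did. The interaction, which is the double-mutant change minus the changes of both single mutants, had a median of -0.12 over the 43 genes (0.016 without double-mutant replicate 1 and -0.26 without replicate 2). No gene passed it, against 0.186% of all probe sets, and 2 genes, Prc1 and Plk1, had an unadjusted p under 0.05, against 11.8%. A station effect that is additive in log2 units drops out of the interaction.

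**Figure D2:**
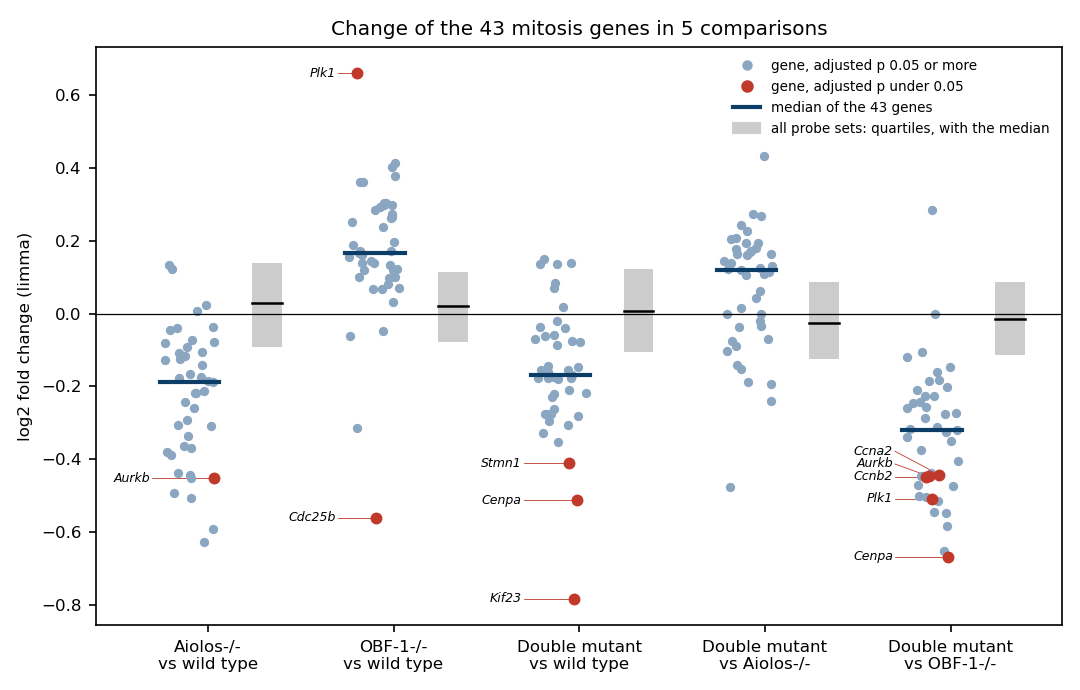
Points are the log2 fold changes of the 43 genes in 5 comparisons on the vertical axis, red with their names where the adjusted p was under 0.05; dark bars are their medians, and grey boxes give the quartiles and the median of all probe sets. The medians of the genes are -0.19, 0.17, -0.17, 0.12 and -0.32 from left to right, while the medians of all probe sets stay near 0.

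Promoters of mitosis genes are known for CCAAT boxes, bound by the factor NF-Y, and for the cell cycle genes homology region, an element near the start site through which the DREAM and MuvB complexes act. RefSeq windows of GRCm38.p6, from 250 bases before to 50 bases after the start site, were matched for 34 of the 43 genes. On either strand, CCAAT (which can share a base with TTTGAA) was in 26 of the 34 windows (76.5%) against 37.9% of the windows of 27025 genes, and TTTGAA, the core of the homology region, was in 24 (70.6%) against 18.1%. Both stood together in 22 of the 34 windows (64.7%) against 7.12% of all. The octamer ATGCAAAT, the site at which OBF-1 joins Oct factors, was in 0 of the 34 windows and 1.75% of all, and TGGGAA, a core bound by Ikaros family proteins, was in 6 (17.6%) against 25.5%. A match of letters is a description of the window and not a bound site. The stretches below belong to 5 of the genes that passed a test and had a window, from 125 bases before to 25 after the start site, 5′ to 3′ along the gene, with CCAAT or its reverse complement ATTGG and TTTGAA in capitals.
Plk1, chr7:122159310-122159459, plus strand: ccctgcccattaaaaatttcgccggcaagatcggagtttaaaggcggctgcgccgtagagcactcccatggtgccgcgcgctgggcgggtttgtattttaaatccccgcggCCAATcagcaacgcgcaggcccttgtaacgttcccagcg
Ccnb2, chr9:70421530-70421679, minus strand: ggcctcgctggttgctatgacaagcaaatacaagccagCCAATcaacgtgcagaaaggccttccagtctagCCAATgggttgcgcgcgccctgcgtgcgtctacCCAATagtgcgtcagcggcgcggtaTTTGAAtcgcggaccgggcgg
Cenpa, chr5:30666761-30666910, plus strand: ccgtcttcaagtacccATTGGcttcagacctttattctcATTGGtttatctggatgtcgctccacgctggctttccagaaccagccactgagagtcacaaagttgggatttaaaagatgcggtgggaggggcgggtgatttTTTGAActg
Kif23, chr9:61946775-61946924, minus strand: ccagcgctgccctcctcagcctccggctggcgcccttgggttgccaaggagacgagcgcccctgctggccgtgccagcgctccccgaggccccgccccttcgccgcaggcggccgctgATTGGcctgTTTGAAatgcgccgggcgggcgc
Cdc25b, chr2:131186823-131186972, plus strand: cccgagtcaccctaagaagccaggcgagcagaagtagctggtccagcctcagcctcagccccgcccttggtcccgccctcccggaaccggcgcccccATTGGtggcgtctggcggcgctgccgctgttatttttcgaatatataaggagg
Ccnb2 holds 3 CCAAT boxes in this stretch and Cenpa 2, and in both TTTGAA follows just after the start site, as it does in Kif23. In Plk1 the TTTGAA of the window begins 31 bases after the start site, past the printed end. The window of Cdc25b holds 1 CCAAT box and no TTTGAA. Aurkb, Ccna2 and Stmn1 had no window.

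The 10 kinases, cyclins and regulators of mitotic entry and exit were Ccna2, Ccnb2, Cdk1, Cdc25b, Cdc25c, Plk1, Plk4, Aurka, Nek2 and Foxm1, of which Plk1, Cdc25b, Ccna2 and Ccnb2 passed a test. Plk1 encodes the Polo-like kinase that promotes mitotic entry, centrosome maturation and the activity of the anaphase promoting complex. Its intensity was 107 and 108 in wild type, 159.5 and 180.2 in OBF-1-/-, 108 and 91.1 in Aiolos-/- and 110.1 and 129 in double-mutant cells. Both OBF-1-/- arrays stood above all the others, and the other genotypes lay between 91.1 and 129. Plk1 rose in OBF-1-/- cells by 0.66 on the log2 scale (SE, its standard error, 0.12, limma adjusted p = 0.0113), and it was lower in the double mutant than in OBF-1-/- cells by a log2 fold change of -0.51 (SE 0.12, adjusted p = 0.0408). The rise missed the threshold when WT replicate 1 (adjusted p = 0.0906), WT replicate 2 (0.0763) or OBF-1 replicate 2 (0.113) was left out, and the second difference did so without double-mutant replicate 1 (0.224), OBF-1 replicate 1 (0.0699), OBF-1 replicate 2 (0.248) or either WT replicate (0.0625).

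Cdc25b encodes a phosphatase that removes the inhibitory phosphates from CDK1. Its intensity was 709.8 and 570.5 in wild type, 424 and 439 in OBF-1-/-, 626 and 615 in Aiolos-/- and 513 and 538 in double-mutant cells. It was the gene furthest below wild type in OBF-1-/- cells, where most of the other genes were above, and the wild type arrays differed from each other more than those of the other genotypes. It fell in OBF-1-/- cells by 0.56 on the log2 scale (SE 0.11, limma adjusted p = 0.0197), but not without WT replicate 1 (log2 fold change -0.40, adjusted p = 0.173), OBF-1 replicate 1 (adjusted p = 0.118) or OBF-1 replicate 2 (0.101). In the double mutant its log2 fold change against wild type was -0.28 (adjusted p = 0.161).

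Ccna2 encodes cyclin A2, which pairs with CDK2 in S phase and with CDK1 before mitosis, and Ccnb2 encodes a B-type cyclin of CDK1. The intensity of Ccna2 was 346 and 363 in wild type, 406 and 386 in OBF-1-/-, 271 and 249.96 in Aiolos-/- and 270.3 and 314 in double-mutant cells. That of Ccnb2 was 274 and 267 in wild type, 271 and 319.6 in OBF-1-/-, 239 and 236 in Aiolos-/- and 213 and 218 in double-mutant cells. For both cyclins, each array without Aiolos was below each array with it on these probe sets. The double mutant was lower than OBF-1-/- in Ccna2 by a log2 fold change of -0.44 (SE 0.10, limma adjusted p = 0.0423) and in Ccnb2 by -0.45 (SE 0.099, adjusted p = 0.0370), on arrays of different stations. Against wild type, Ccna2 had log2 fold changes of -0.44 in Aiolos-/- (adjusted p = 0.0504) and -0.28 in the double mutant (adjusted p = 0.121), and Ccnb2 had -0.19 (adjusted p = 0.331) and -0.33 (adjusted p = 0.0659). Another Ccna2 probe set, with a mean intensity of 272, did not separate the arrays: double-mutant replicate 2 had 272 and WT replicate 1 had 263. Its log2 fold change was -0.25 in Aiolos-/- cells (limma adjusted p = 0.308). In the double mutant against OBF-1-/- it was -0.49 (adjusted p = 0.0646), which missed the threshold. Against OBF-1-/- the call of Ccna2 held only without double-mutant replicate 2, and that of Ccnb2 only without OBF-1 replicate 1. Without the other arrays in turn the adjusted p of Ccna2 was 0.0596 to 0.225, and it was highest without double-mutant replicate 1. That of Ccnb2 was 0.0562 to 0.251, and it was highest without OBF-1 replicate 2.

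Of the other genes of this group, Cdk1, the mitotic kinase itself, had 268 and 269.9 in wild type, 307 and 349.9 in OBF-1-/-, 181 and 233 in Aiolos-/- and 207 and 258 in double-mutant cells, and passed no test. Aurka, which encodes the Aurora kinase of the spindle poles, had log2 fold changes of 0.30 in OBF-1-/- (adjusted p = 0.154) and -0.24 in Aiolos-/- cells (adjusted p = 0.197). Plk4, the kinase that starts centriole duplication, had 0.40 in OBF-1-/- cells (adjusted p = 0.226). Foxm1, a transcription factor of late cell cycle genes, was between 181 and 222 on all 8 arrays. Cdc25c and Nek2 had mean intensities of 21.2 and 33.0, below the limit of 100.

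**Figure D3:**
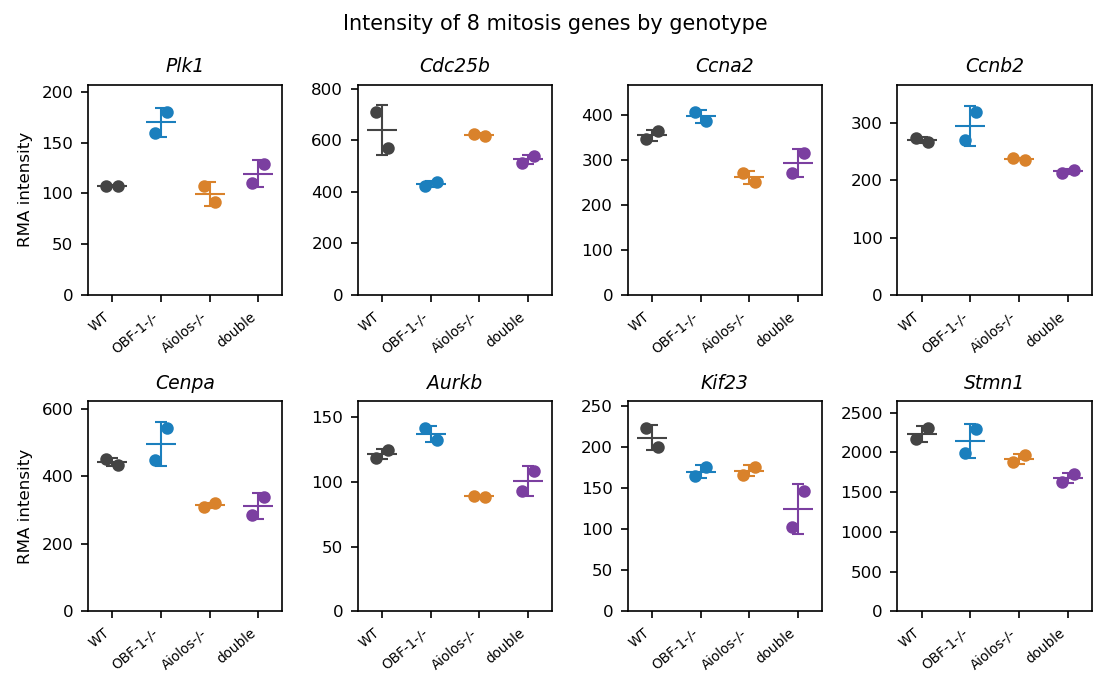
Intensities of the 8 genes that passed a test in at least 1 comparison, by genotype; points are the 2 arrays, the horizontal mark is their mean and the bar the SD (n = 2), and each vertical axis starts at 0. Plk1 is highest in OBF-1-/- cells (159.5 and 180.2), Cdc25b lowest there (424 and 439), and Cenpa, Aurkb, Ccna2 and Ccnb2 are lower on the arrays without Aiolos.

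Of the 8 genes of the spindle checkpoint and of anaphase (Cdc20, Bub1, Bub1b, Bub3, Mad2l1, Ttk, Pttg1 and Ube2c) none passed a test with its chosen probe set. All 8 lay above wild type in OBF-1-/- and all 8 below it in Aiolos-/- cells, with median log2 fold changes of 0.18 and -0.13, and in the double mutant the median was -0.077. Bub1 encodes a kinase that recruits checkpoint proteins to kinetochores. It had 86.7 and 92.9 in wild type, 95.3 and 106 in OBF-1-/-, 65.0 and 66.3 in Aiolos-/- and 59.4 and 88.7 in double-mutant cells, with a double-mutant change of -0.31 in log2 units (limma adjusted p = 0.279). It passed there only without double-mutant replicate 2 (log2 fold change -0.60, adjusted p = 0.0134). Ube2c, the ubiquitin-conjugating enzyme of the anaphase promoting complex, had 181 and 201 in wild type, 238 and 253 in OBF-1-/-, 137 and 161 in Aiolos-/- and 148 and 199.5 in double-mutant cells. For Ube2c the OBF-1-/- arrays were above and the Aiolos-/- arrays below both wild type arrays, with log2 fold changes of 0.36 (adjusted p = 0.27) and -0.36 (adjusted p = 0.188). Cdc20, the activator of that complex that the checkpoint holds back, ranged from 309.8 to 429.8 over the 8 arrays, with a log2 fold change of -0.037 in the double mutant (adjusted p = 0.884). Of 2 other Cdc20 probe sets, both of the x_at type, which can cross-hybridize, 1 fell there by 0.48 on the log2 scale (adjusted p = 0.0310) and the other had -0.087 (adjusted p = 0.691). The chosen probe sets of Pttg1, which encodes securin, and of Bub3 were between -0.21 and 0.067 in every comparison of a mutant with wild type. Other probe sets of the same genes differed: 1 of Pttg1, with a mean intensity of 121, had -0.35 in Aiolos-/- (adjusted p = 0.244) and -0.35 in double-mutant cells (adjusted p = 0.208), and 1 of Bub3, with a mean intensity of 16.2, fell in Aiolos-/- cells by 0.46 (adjusted p = 0.0423).

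The 6 genes of the centromere and of the chromosomal passenger complex had the lowest group median in Aiolos-/- cells, a log2 fold change of -0.39. Cenpa encodes the histone H3 variant that marks centromeres. Its intensity was 451 and 435 in wild type, 449 and 542 in OBF-1-/-, 310.0 and 320.0 in Aiolos-/- and 285 and 339 in double-mutant cells. Every array without Aiolos was below every array with it. Cenpa fell in the double mutant by 0.51 on the log2 scale against wild type (SE 0.12, limma adjusted p = 0.0171) and was lower than in OBF-1-/- cells by a log2 fold change of -0.67 (SE 0.12, adjusted p = 0.00978). In Aiolos-/- cells its log2 fold change was -0.49 (adjusted p = 0.0564). The fall against wild type missed the threshold when WT replicate 1 (adjusted p = 0.102), WT replicate 2 (0.0749) or double-mutant replicate 1 (0.147) was left out, and the difference from OBF-1-/- did so without OBF-1 replicate 2 (0.108) or double-mutant replicate 1 (0.0927).

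Aurkb encodes the kinase of the passenger complex, with which INCENP and survivin, the product of Birc5, assemble. Aurkb had 118 and 124 in wild type, 141 and 132 in OBF-1-/-, 89.0 and 88.4 in Aiolos-/- and 92.5 and 109 in double-mutant cells. The arrays without Aiolos were again all below those with it. Aurkb fell in Aiolos-/- cells by 0.45 on the log2 scale (SE 0.10, limma adjusted p = 0.0466) and was lower in the double mutant than in OBF-1-/- cells by a log2 fold change of -0.45 (SE 0.10, adjusted p = 0.0399). With 1 array left out, the fall in Aiolos-/- cells missed the threshold without either OBF-1 replicate (adjusted p = 0.0634), Aiolos replicate 1 (0.215), Aiolos replicate 2 (0.162), WT replicate 1 (0.190) or WT replicate 2 (0.148), and the second call held only without double-mutant replicate 2 (0.0581 to 0.215 otherwise). The Aurkb probe set is also of the x_at type. Another Aurkb probe set, with a mean intensity of 19.4, had -0.50 in Aiolos-/- cells (adjusted p = 0.0418) and -0.10 in the double mutant against OBF-1-/- (adjusted p = 0.723).

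Birc5 had 281 and 344 in wild type, 351 and 402 in OBF-1-/-, 231 and 228 in Aiolos-/- and 222 and 298 in double-mutant cells, with a log2 fold change of -0.44 in Aiolos-/- cells (adjusted p = 0.136). Its partner Incenp had -0.34 there (adjusted p = 0.251). Cenpf, which encodes a large kinetochore protein, had 0.30 in OBF-1-/- cells (adjusted p = 0.330). Cenpe, a kinetochore motor, had a mean intensity of 8.75 and no difference that passed.

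The 10 spindle motors and microtubule binding proteins were Kif11, Kif20a, Kif22, Kif23, Kif2c, Kif4, Tpx2, Prc1, Stmn1 and Nusap1. Kif23 encodes the motor of centralspindlin, the complex at the middle of the anaphase spindle. Its intensity was 223 and 201 in wild type, 165 and 176 in OBF-1-/-, 167 and 176 in Aiolos-/- and 103 and 147 in double-mutant cells. Both single mutants lay below wild type and the double mutant below both single mutants, without overlap. Kif23 fell in the double mutant by 0.78 on the log2 scale (SE 0.14, limma adjusted p = 0.00462), which was the lowest log2 fold change of the 43 genes against wild type, and the log2 fold changes of the single mutants were -0.31 in Aiolos-/- (adjusted p = 0.270) and -0.31 in OBF-1-/- (adjusted p = 0.368). Leaving out WT replicate 1 ended the call (adjusted p = 0.0525). Of 2 other Kif23 probe sets, the brighter, with a mean intensity of 31.1, had 0.13 in the double mutant (adjusted p = 0.429), so the fall rests on 1 probe set.

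Stmn1 encodes stathmin, which destabilizes microtubules until it is phosphorylated in mitosis. It had 2162 and 2301 in wild type, 1990.0 and 2296 in OBF-1-/-, 1873.5 and 1961 in Aiolos-/- and 1631 and 1725 in double-mutant cells. The double-mutant arrays were the lowest, while those of OBF-1-/- and wild type overlapped. Stmn1 fell in the double mutant by 0.41 on the log2 scale (SE 0.099, limma adjusted p = 0.0244), and its other probe set, with a mean intensity of 60.0, fell by 0.65 (adjusted p = 0.0042). The call of the first was lost when WT replicate 1 (adjusted p = 0.0701), WT replicate 2 (0.148), double-mutant replicate 1 (0.14) or double-mutant replicate 2 (0.0551) was left out, and after another quantile normalization (0.0618).

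Nusap1, which bundles spindle microtubules, and Kif11, the motor that drives the spindle poles apart, were the genes furthest below wild type in Aiolos-/- cells. Nusap1 had 209 and 221 in wild type, 258 and 272 in OBF-1-/-, 136 and 143 in Aiolos-/- and 136 and 209 in double-mutant cells. Kif11 had 125 and 143 in wild type, 137 and 143 in OBF-1-/-, 89.7 and 87.5 in Aiolos-/- and 98.5 and 145 in double-mutant cells. In these genes double-mutant replicate 1 was near the Aiolos-/- arrays and replicate 2 near the wild type arrays. In Aiolos-/- cells the log2 fold changes were -0.63 for Nusap1 (SE 0.16, limma adjusted p = 0.0684) and -0.59 for Kif11 (SE 0.15, adjusted p = 0.0722). In the double mutant Nusap1 had -0.35 (adjusted p = 0.215, and -0.66 with an adjusted p of 0.00616 without double-mutant replicate 2). Prc1, which crosslinks the microtubules of the central spindle, and Kif2c, a depolymerase at centromeres, lay above wild type in Aiolos-/- cells, with log2 fold changes of 0.13 (adjusted p = 0.559) and 0.12 (adjusted p = 0.551), as did Plk4 and Smc4 with values near 0. For all 4 genes another probe set lay below wild type there, with -0.41 for an x_at probe set of Kif2c (adjusted p = 0.0892) and -0.49 for one of Smc4 (adjusted p = 0.263). That of Prc1 had only -0.026, and the further Kif2c probe sets had 0.0074 and 0.078. Some other genes had a dim probe set above wild type there. Among them were Cenpf with 0.35, Top2a with 0.30 and Nusap1 with 0.15, at mean intensities of 44.4, 21.9 and 20.4. Kif22, a chromosome-binding kinesin, passed no test with its chosen probe set (double mutant against wild type -0.18, adjusted p = 0.533), while another, with a mean intensity of 57.1, fell by 0.66 (adjusted p = 0.0166).

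The 3 genes of cytokinesis were Racgap1, the partner of KIF23 in centralspindlin, Ect2, the exchange factor that activates RhoA at the division plane, and Anln, which encodes the ring scaffold anillin. Racgap1 had 171 and 169.5 in wild type, 174 and 197 in OBF-1-/-, 153 and 139 in Aiolos-/- and 157 and 175 in double-mutant cells. Its log2 fold changes were -0.22 in Aiolos-/- (limma adjusted p = 0.277), 0.12 in OBF-1-/- (adjusted p = 0.670) and -0.039 in the double mutant (adjusted p = 0.881). Ect2 and Anln had mean intensities of 27.5 and 39.3. Ect2 had 27.1 and 28.5 in wild type, 34.1 and 34.3 in OBF-1-/-, 21.7 and 23.2 in Aiolos-/- and 20.7 and 30.4 in double-mutant cells, so that only the double-mutant arrays lay on either side of wild type. Anln had 39.6 and 34.6 in wild type, 37.3 and 65.3 in OBF-1-/-, 32.1 and 38.2 in Aiolos-/- and 26.4 and 41.1 in double-mutant cells, with OBF-1-/- replicate 2 far above the rest. None of the 3 passed a test.

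The last 6 genes were Top2a, which encodes the topoisomerase that disentangles sister chromatids, Mki67, the Ki-67 protein that coats mitotic chromosomes and is used as a mark of dividing cells, and the condensin genes Smc2, Smc4, Ncapd2 and Ncaph. Top2a had 503 and 494 in wild type, 554 and 624 in OBF-1-/-, 369 and 334 in Aiolos-/- and 349 and 494 in double-mutant cells. Mki67 had 743 and 703 in wild type, 819.7 and 773 in OBF-1-/-, 574 and 608 in Aiolos-/- and 575 and 709.8 in double-mutant cells. In both genes the OBF-1-/- arrays were above and the Aiolos-/- arrays below the wild type arrays, and double-mutant replicate 2 reached the wild type range. Their log2 fold changes in Aiolos-/- cells were -0.51 for Top2a (limma adjusted p = 0.0963) and -0.29 for Mki67 (adjusted p = 0.186), and in OBF-1-/- cells 0.24 (adjusted p = 0.522) and 0.14 (adjusted p = 0.647). Ncaph had 164 and 203 in wild type, 192 and 245 in OBF-1-/-, 150.2 and 154 in Aiolos-/- and 129 and 171 in double-mutant cells, with -0.29 in the double mutant (adjusted p = 0.304). The largest difference of the group in OBF-1-/- cells was that of Smc4, the ATPase shared by both condensins, with 0.36 (adjusted p = 0.115). None of the 6 passed a test.

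The 2 double-mutant pools differed in these genes more than the pools of the other genotypes did. On replicate 2, 39 of the 43 genes were higher than on replicate 1, with a median log2 difference of 0.25, while over all probe sets the median was -0.028 and 43.2% were higher. In OBF-1-/- cells 38 genes were higher on replicate 2, with a median difference of 0.16. In both of these genotypes replicate 1 ran on module 3 and replicate 2 on module 4. In wild type and Aiolos-/- cells 25 and 19 genes were, with medians of 0.019 and -0.023. All 6 genes of the centromere and passenger group, all 6 of the condensation group and all 3 of cytokinesis were higher on double-mutant replicate 2. Across the 43 genes, those further below wild type in Aiolos-/- cells differed more between the double-mutant pools (Pearson r -0.517, Spearman rho -0.449). The same relation had an r of -0.284 over the 9805 probe sets with a mean of 100 or more, and genes of 1 set of arrays are not independent of each other. The erythroid markers summed to 1321 on double-mutant replicate 1 and 1130 on replicate 2, and the granulocyte and monocyte markers to 28809 and 29420. The pro-B and pre-BI markers summed to 3664 on replicate 1 and 4210 on replicate 2. Their part in the difference was not tested.

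**Figure D4:**
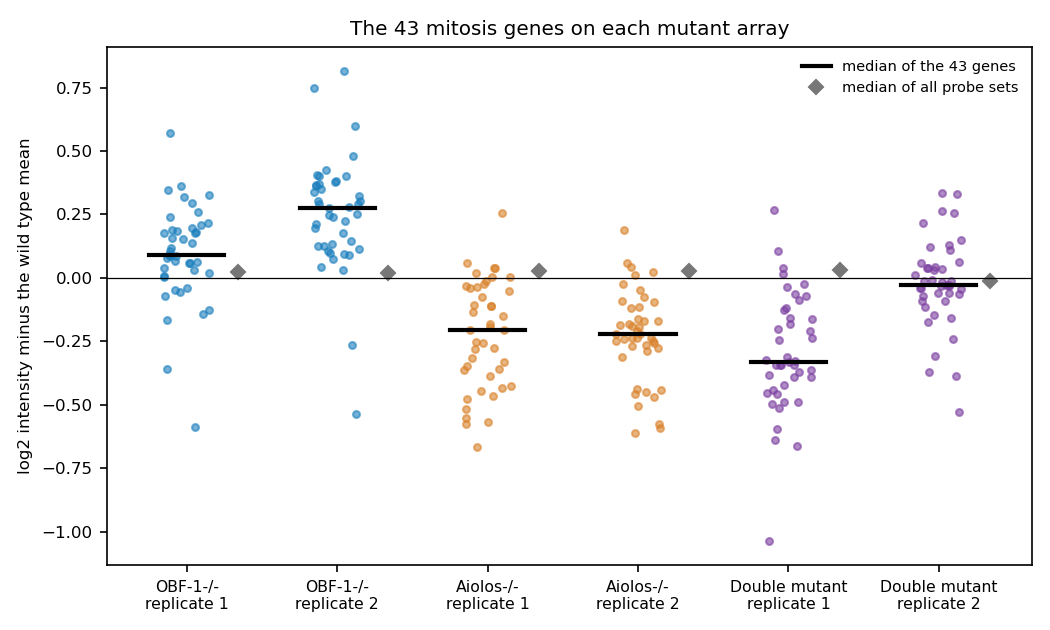
Each point is the log2 intensity of 1 of the 43 genes on a mutant array minus its wild type mean, black bars are the medians of the genes, and grey diamonds the medians of all probe sets on the same array. The medians are 0.090 and 0.28 on the OBF-1-/- arrays, -0.21 and -0.22 on the Aiolos-/- arrays, and -0.33 and -0.026 on the double-mutant arrays.

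Of 96 further genes of mitosis, 67 had a probe set. Their median log2 fold changes were -0.12 in Aiolos-/-, 0.081 in OBF-1-/- and -0.046 in double-mutant cells against wild type, and -0.12 in the double mutant against OBF-1-/-. Both Aiolos-/- arrays were below both wild type arrays for 36 of them (53.7%). The share was 21.8% of all probe sets and 34.3% of those with a mean of 100 or more. Both OBF-1-/- arrays were above both wild type arrays for 27 (40.3%), against 25.8% and 22.5%. In Aiolos-/- cells 1 fell, in OBF-1-/- cells none passed, and in the double mutant 3 rose and 5 fell. The 8 calls in the double mutant were 11.9% of these genes, near the 8.57% of all probe sets called, and the call in Aiolos-/- cells was 1.49% against 1.84%. Tacc3, which encodes a spindle protein that AURKA loads onto microtubules, had 102 and 97.9 in wild type, 115 and 116 in OBF-1-/-, 76.7 and 72.9 in Aiolos-/- and 74.6 and 81.4 in double-mutant cells. It fell by 0.42 on the log2 scale in Aiolos-/- (limma adjusted p = 0.0433) and by 0.36 in double-mutant cells (adjusted p = 0.0302). Cks1b, a small subunit of the cyclin-dependent kinases, fell in the double mutant by 0.62 (adjusted p = 0.00991) from 680.4 and 785 to 418 and 545. Zwint, a kinetochore protein, went the other way, with 260.2 and 269 in wild type and 345 and 370.0 in the double mutant (log2 fold change 0.43, adjusted p = 0.00993). Cenpm, Cenpt and Cdc26 also fell and Mad1l1 and Nipbl rose in the double mutant.

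Genes of DNA replication were set beside these because they peak earlier in the cell cycle, in a list drawn up after the values were seen: Mcm2 to Mcm7, Pcna, Rrm1, Rrm2 and Tyms, 10 genes. None passed a test in any comparison. Their median log2 fold changes were -0.095 in Aiolos-/-, -0.0073 in OBF-1-/- and -0.13 in double-mutant cells, so that in OBF-1-/- cells, where 39 of the 43 mitosis genes lay above wild type, 5 of these 10 did. Below wild type lay 8 of the 10 in Aiolos-/- and 10 in double-mutant cells. Both Aiolos-/- arrays were below both wild type arrays for 7 (70%), against 69.8% of the mitosis genes and 21.8% of all probe sets. For the double-mutant arrays this held for 7 (70%), against 37.2% and 23.3%. The difference between the lists was not tested.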

How the data were processed

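RNA of pre-BII cells of 4 genotypes was hybridized to 8 Affymetrix MOE430A arrays, 2 per genotype. The authors deposited linear intensities per probe set made with RMA, per the labels' processing notes, which give no version; RMA corrects background, quantile normalizes and summarizes probes. The methods of the study also name Affymetrix Microarray Suite and GeneSpring. Log2 of these intensities was fitted here with limma 3.58.1 (R 4.3.3), with a mean per genotype, over 22626 probe sets after 64 controls were left out, and p-values were adjusted by Benjamini-Hochberg with a threshold of 0.05. They measure the spread between these arrays only. Symbols came from the platform annotation, updated through Entrez identifiers: 20380 probe sets had 1 symbol, 691 several and 1555 none. Array medians were 66.7 to 69.4, and arrays of a genotype correlated at 0.9961 to 0.9965. No depth applies to arrays.

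The genes and lists were chosen with earlier results of these data known. Values on all arrays are given for the 8 members with the largest absolute log2 fold changes in the double mutant against wild type, for every member that passed a test and for at least 2 members of each role group; which further members these were, and the further mitosis genes beside Tacc3, Cks1b, Zwint and Cenpm, was decided after their values were seen. The DNA replication list and the repeat with only the members of a mean intensity of 100 or more were also added then. Replicate numbers did not pair the arrays (correlations of deviations -0.0875 to 0.103). Scripts were tested on simulated data.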

Additional observations from a re-analysis of the deposited data

How the results depend on the processing

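Of the 43 genes, 1 passed in Aiolos-/- cells against wild type. The count was 3 with arrays centred on their medians, 3 with only probe sets of at least 100 in a genotype, 3 with trended and robust moderation, 4 with the replicate number as a block, 4 with only the genotypes compared in the fit, 2 when a gene's probe sets were averaged, and 0 to 7 with 1 array left out. In OBF-1-/- cells 2 passed, 1 with only the genotypes compared and 0 to 2 with an array left out. In the double mutant 3 passed against wild type (0 to 7 with an array left out), 0 against Aiolos-/- (0 to 2), and 5 against OBF-1-/- (8 with trended and robust moderation, 10 with the replicate block, 1 with only the genotypes compared, 0 to 14 with an array left out). Over all probe sets, the calls in the double mutant against OBF-1-/- were 596, with 723 under trended and robust moderation, 656 under the block, 402 with only the genotypes compared and 244 to 498 with an array left out. In Aiolos-/- cells they were 417, with 443 after centring, 398 with the filter at 100, 553 under trended and robust moderation, 460 under the block, 251 with only the genotypes compared, 345 with averaged probe sets and 55 to 481 with an array left out. With an array left out they were 182 to 478 (472 with all arrays) in OBF-1-/- cells, 988 to 1888 (1938) in the double mutant against wild type and 305 to 624 (667) against Aiolos-/-. Without variance moderation 0 of the 43 genes passed in any comparison. Few of all probe sets passed under that setting either, from 0 in the interaction to 359 in the double mutant against wild type. Since replicate numbers did not pair the arrays, calls under the block are not read further. Leaving out a double-mutant array moved the median log2 fold changes: against wild type from -0.17 to -0.330 and -0.0264, against Aiolos-/- from 0.12 to -0.0383 and 0.230, against OBF-1-/- from -0.32 to -0.466 and -0.209, and in the interaction from -0.12 to -0.257 and 0.0164. The cause was not tested. With 1 array left in a genotype, that array is assumed to vary like the others. The other settings left these counts and medians within 1.5 times, or within the spread between arrays. Of the genes, 11 members have mean intensities under 100, where the signal over background limits the comparison.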
